A study of Mus musculus with 24 samples.

Results

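Interferon-inducible GTPases were followed in monocytes sorted from the peripheral blood of mice with and without skin inflammation. The 10 genes *Gbp2*, *Gbp3*, *Gbp5*, *Gbp7*, *Gbp8*, *Irgm1*, *Irgm2*, *Igtp*, *Iigp1* and *Tgtp2* were chosen by name from the 53715 genes of the expression table, with earlier results of these data known. 9 of the 10 reached a normalized count of 50 in at least 1 of the 24 libraries and were tested among 11230 such genes, while *Tgtp2* was at 0 in 23 libraries and at 3 in the other one. The main changes were a fall of most members in Ly6Chi monocytes after imiquimod, a lower *Gbp3* in Ly6Clo than in Ly6Chi monocytes, and a higher *Gbp3* in Ly6Clo monocytes of mice in which *Notch2* is targeted in myeloid cells.

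The proteins belong to 2 families. Guanylate-binding proteins (GBPs) are large GTPases that assemble on vacuoles holding pathogens and on bacteria in the cytosol, and help to open them and to trigger inflammasomes. Immunity-related GTPases (IRGs) fall into regulators, *Irgm1*, *Irgm2* and *Igtp* (also called Irgm3), which stay on the membranes of the cell itself and restrain their relatives, and effectors such as *Iigp1* and *Tgtp2*, which load onto the vacuole of the pathogen. Transcription of both families is switched on by interferon gamma, whose receptor (*Ifngr1*, *Ifngr2*) signals through JAK kinases to gamma-activated sites (GAS), and by IRF1 and the complex of type I interferon that holds STAT2 and IRF9, which bind interferon-stimulated response elements (ISRE).

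Wild-type (wt) littermates were compared with *N2ΔMy* mice, in which Cre expressed from the *Lyz2* locus in myeloid cells deletes *Notch2* lox/lox. All mice were on a C57BL/6 background, 8 to 10 weeks old, and carried a *Cx3cr1* gfp/+ reporter whose fluorescence was used in the sort. IMQ mice received 50 mg per day of Aldara, a cream with 5% imiquimod, a TLR7 agonist, on the skin for 4 to 5 days, and controls are labelled Sham. Lineage-negative CD11b+ GFP+ CD115+ cells were sorted on day 5 as Ly6Chi (CD43-, MHC-II-) or Ly6Clo (MHC-II-), which gave 6 groups of 4 libraries: Ly6Chi Sham, Ly6Chi IMQ and Ly6Clo IMQ of each genotype. No Ly6Clo cells of Sham mice were in the data.

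The inferred depth was 9523728 to 19754712 reads per library. *Notch2* itself, the targeted gene, was at 12656 to 20005 in wt and 7240 to 11518 in *N2ΔMy* libraries and was called lower in all 3 genotype comparisons by 0.71 to 0.87 on the log2 scale. Summed markers matched the sorted subsets in wt, with the 5 Ly6Chi markers at 141693 to 188751 in Ly6Chi Sham, at 145178 to 175959 in Ly6Chi IMQ and at 2911 to 5767 in Ly6Clo. In *N2ΔMy* the same sums were 165513 to 188709, 201747 to 245651 and 34500 to 66174, the last above the wt Ly6Clo range. The 12 T and NK cell markers summed to between 0 and 77, and *Cd3e*, *Cd3g* and *Trac* were at 0 throughout. Libraries carry numbers of 2 series, replicates 1 and 2 in the first and 3 and 4 in the second, so values within each series are given for some results. The 6 B cell markers summed to 808 to 3872, mostly *Ighm*, with *Ms4a1* at 0 in 23 libraries, while the 5 red cell markers summed to 0 to 1543 and the 5 platelet markers to 21 to 273.

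Promoters of 8 members were taken from the RefSeq table of GRCm38.p6, from 250 bases before to 50 after the annotated start. *Gbp8* had no entry there. *Iigp1* was left out of the promoter search, so the counts of matches do not cover it. An ISRE was searched on both strands as GAAA, any 2 bases and GAAA, which reads TTTC, any 2 bases and TTTC on the other strand, and a GAS as the palindrome TTCNNNGAA. The 8 genes have 9 promoters in the table, since *Gbp3* has 2, and all but the second of *Gbp3*, which had neither match, held an ISRE match, against 3.44% of all 32851 promoters of that length. A GAS match was in 5 of the 9 (*Gbp5*, *Gbp7*, *Irgm2*, *Igtp* and *Tgtp2*), against 8.30%. Both occurred together in 0.454% of all promoters. A match describes letters in this window, and binding was not measured. The stretches around the matches are shown for *Gbp3* and *Gbp7*, GBPs without and with a GAS, and for the 3 IRGs with the same arrangement, from 5′ to 3′ on the strand of the gene with matches in capitals.
Gbp3 at chr3:142559984-142560025, plus strand: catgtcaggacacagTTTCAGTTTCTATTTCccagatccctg
Gbp7 at chr3:142530215-142530307, plus strand: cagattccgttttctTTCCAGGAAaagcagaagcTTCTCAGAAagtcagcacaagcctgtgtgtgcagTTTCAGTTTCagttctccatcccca
Irgm2 at chr11:58214887-58214937, plus strand: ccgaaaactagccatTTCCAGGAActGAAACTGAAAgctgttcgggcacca
Igtp at chr11:58199496-58199546, plus strand: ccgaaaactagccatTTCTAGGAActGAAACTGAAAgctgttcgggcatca
Tgtp2 at chr11:49064258-49064308, minus strand: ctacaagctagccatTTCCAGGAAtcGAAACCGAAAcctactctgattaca

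In *Irgm2*, *Igtp* and *Tgtp2* the first base of the GAS lay 11 bases before the first base of the ISRE, and the 51 bases shown for *Irgm2* and *Igtp* were identical at 49 positions. The 2 ISRE matches of *Gbp3* overlapped, as did the 2 of *Irgm1*. All printed stretches lie before the RefSeq start. In the gene models of the expression table, that of *Irgm2* starts further upstream, at position 58199618 of chromosome 11, so its stretch lies inside the span of that model. *Tgtp2* shares this promoter arrangement with *Igtp* and *Irgm2* but was not detected beyond 3 in these monocytes. *Tgtp1*, its near-identical copy, was at 0 to 14, and reads that fit both copies may have been lost in counting, so the level of either is uncertain.

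**Figure D1:**
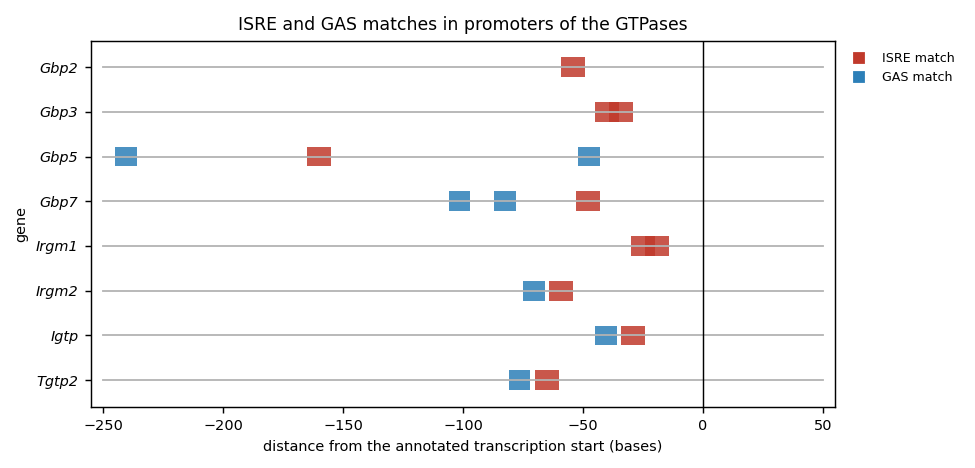
Positions of ISRE (red) and GAS (blue) matches in the promoters of 8 GTPase genes, with distance from the RefSeq start in bases on the x axis and 1 gene per line. Each gene has a red block, and *Irgm2*, *Igtp* and *Tgtp2* have a blue block directly before it.

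The 4 GBPs of chromosome 3 lie within 1 cluster: *Gbp5* at 142493978 to 142522344, *Gbp7* at 142530342 to 142550149, *Gbp3* at 142560026 to 142573209 and *Gbp2* at 142620602 to 142638008, all on the plus strand of GRCm38.p6. *Gbp8* lies apart from them, on chromosome 5 at 105014150 to 105139540 on the minus strand, where its exons share 60 bases with *Gbp9* and 61 with *Gbp4*. *Irgm1* (48861968 to 48871683), *Tgtp2* (49057194 to 49064206), *Igtp* (58199556 to 58207591) and *Irgm2* (58199618 to 58222782) lie on chromosome 11, and *Iigp1* on chromosome 18 (60376029 to 60392627). The exons of *Igtp* and *Irgm2* share 162 bases on the same strand, 8.01% of the exon length of *Igtp*, so reads there could belong to either gene.

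Per kilobase of exon, *Gbp3* had the highest level of the family in Ly6Chi cells of wt Sham mice, 780.1 ± 64.2 normalized counts per kb (SD, n = 4), followed by *Gbp2* with 463 ± 48.3. *Igtp* (289.9 ± 42.1) and *Irgm2* (261 ± 47.7) came next, with overlapping libraries, and then *Gbp7* (184 ± 33.9) and *Gbp5* (107 ± 9.11). *Irgm1* was lower, at 41.2 ± 2.26 per kb, and *Gbp8* (11.0 ± 2.45) and *Iigp1* (10.3 ± 2.70) were lowest of the 9 tested members, with means under the minimum of 50. Over the 6 groups, the highest group mean exceeded the lowest by a factor of 2.37 in *Irgm2* and of 8.79 in *Gbp8*, with 6.81 in *Gbp3*. Leaving aside *Gbp8* and *Iigp1*, which passed the minimum through the groups where they are high, the 7 other tested members all differed over the 6 groups (limma F-test over 24 libraries), where 43% of all genes did. Sham Ly6Chi cells held the highest mean of 7 of the 9 members, with *Gbp8* highest in wt Ly6Clo cells and *Iigp1* in *N2ΔMy* Ly6Chi IMQ cells.

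**Figure D2:**
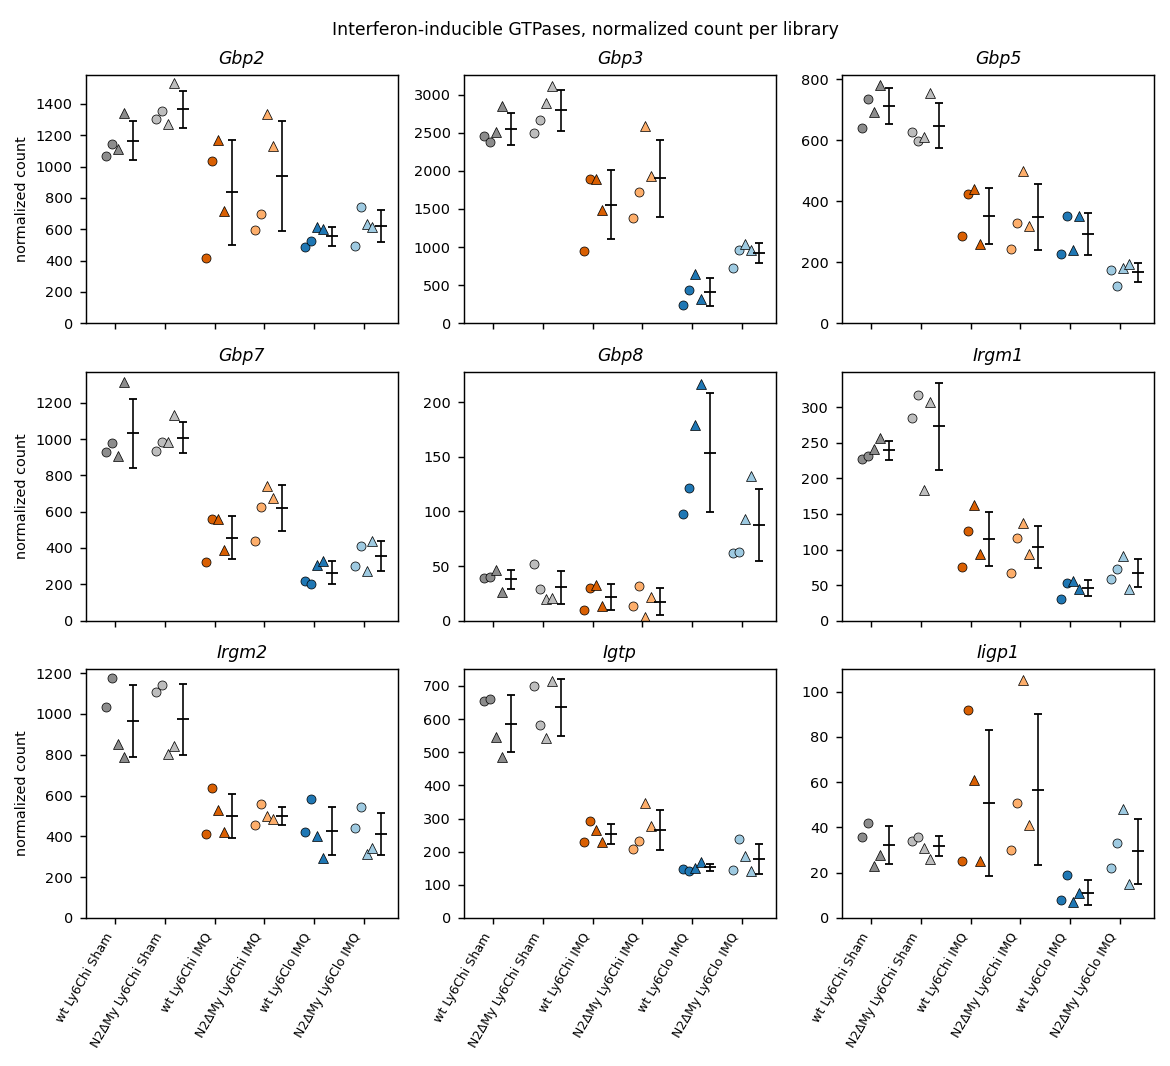
Normalized count of each GTPase (y axis, from 0) in every library of the 6 groups (x axis), with circles for the first and triangles for the second library series and the mean ± SD of 4 libraries beside them. *Gbp3* lies between 2374 and 3118 in Sham Ly6Chi cells and between 240 and 1037 in Ly6Clo cells, whereas *Gbp8* is highest in Ly6Clo cells.

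The first comparison asked what topical IMQ did to the GTPases in Ly6Chi monocytes. In wt cells, 6 of 9 members were called lower and none higher, and the members' median log2 fold change was -0.95, against 0.01 over all genes tested. To be called, a gene needed an adjusted p no higher than 0.05 by the Benjamini-Hochberg method over all 11230 genes (limma on log2(value + 1)) and a log2 fold change of 0.6 or more in either direction, and 9.49% of all genes met both, 4.43% higher and 5.07% lower. In *N2ΔMy* cells 5 of 9 members were called lower and none higher, with a median of -0.94, where 8.7% of genes were called, 4.15% higher and 4.55% lower. The same-number libraries of the groups deviated together, in part with the library series, so a fit with the replicate number as a block was made as well. It is quoted where it changes the call of a member or a count of calls given for a list.

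Among the GBPs, *Gbp7*, which is linked to assembly of the phagocyte oxidase, was at 930, 976, 906 and 1314 in wt Sham and at 324, 558, 560 and 388 in wt IMQ libraries. The IMQ libraries all lay under the Sham libraries, and the log2 fold change was -1.19 (SE 0.19, adjusted p = 0.0020, limma). In *N2ΔMy* cells *Gbp7* went from 932, 985, 981 and 1131 to 441, 626, 742 and 673, again without overlap, a log2 fold change of -0.72 (SE 0.15, adjusted p = 0.011, limma), which without *N2ΔMy* IMQ replicate 1 was -0.57 and under the minimum of 0.6. *Gbp5*, which promotes assembly of the NLRP3 inflammasome, went from 640, 734, 692 and 782 to 286, 423, 440 and 259 in wt. That was a log2 fold change of -1.05 (SE 0.18, adjusted p = 0.0026, limma), and the corresponding value in *N2ΔMy* was -0.94 (SE 0.19, adjusted p = 0.010, limma), from 628, 596, 610 and 756 to 244, 330, 498 and 320.

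*Gbp3*, the most abundant member per kb, was at 2460, 2374, 2503 and 2851 in wt Sham and at 943, 1895, 1895 and 1492 in wt IMQ libraries. It was called lower with a log2 fold change of -0.76 (SE 0.19, adjusted p = 0.023, limma), a call that is lost when wt Sham replicate 3 or 4, or wt IMQ replicate 1 or 4, is left out, with values from -0.87 to -0.54. In *N2ΔMy* cells it went from 2498, 2667, 2886 and 3118 to 1381, 1722, 2581 and 1935, where 1 IMQ library lay inside the Sham range. The log2 fold change there, -0.58 (SE 0.17, adjusted p = 0.044, limma), was under the minimum of 0.6. Without *N2ΔMy* IMQ replicate 3 it was -0.74 and called.

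*Gbp2*, which coats the vacuole of *Toxoplasma*, was not called in either genotype. Its Sham libraries lay between 1067 and 1342 in wt and between 1268 and 1531 in *N2ΔMy*, while the IMQ libraries spread over 418, 1036, 1170 and 715 in wt and over 594, 698, 1332 and 1132 in *N2ΔMy*. The coefficient of variation was 10.4% in Sham and 40.4% in IMQ libraries of wt, and 8.54% and 37.3% in *N2ΔMy*, with no test of the spread. The log2 fold changes were -0.58 (SE 0.27, adjusted p = 0.18), or -0.28 without wt IMQ replicate 1, and -0.61 (SE 0.23, adjusted p = 0.11, limma), or -0.81 and called without *N2ΔMy* IMQ replicate 3. With the replicate block *Gbp2* was called lower in *N2ΔMy* (adjusted p = 0.038, limma), where the first library series gave -1.04 and the second -0.18.

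The 3 IRG regulators were called lower in both genotypes, and in none of them did a Sham library overlap an IMQ library. *Igtp* was at 654, 660, 545 and 486 in wt Sham and at 230, 292, 264 and 230 in wt IMQ libraries. The log2 fold change was -1.20 (SE 0.14, adjusted p = 0.00036, limma) in wt and -1.27 (SE 0.17, adjusted p = 0.0010, limma) in *N2ΔMy*, where the libraries went from 701, 582, 542 and 715 to 208, 232, 346 and 277. *Irgm1*, which protects the cell against its own effector IRGs and is linked to autophagy, went from 228, 231, 242 and 257 to 76, 126, 162 and 94 in wt. Its log2 fold changes were -1.11 (SE 0.22, adjusted p = 0.0070) in wt and -1.41 (SE 0.25, adjusted p = 0.0050, limma) in *N2ΔMy*, where the values were 285, 318, 184 and 307 in Sham and 67, 116, 137 and 94 in IMQ libraries. *Irgm2* went from 1036, 1175, 854 and 788 to 409, 635, 531 and 420 in wt, and from 1106, 1140, 803 and 843 to 455, 559, 498 and 483 in *N2ΔMy*. Both log2 fold changes were -0.95 (SE 0.17 and 0.13, adjusted p = 0.0035 and 0.0013, limma).

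The effector *Iigp1* had a higher mean after IMQ, within the spread of its libraries. The wt libraries were at 36, 42, 23 and 28 in Sham and at 25, 92, 61 and 25 in IMQ, a log2 fold change of 0.45 (SE 0.44, adjusted p = 0.55, limma) that ranged from 0.099 without wt IMQ replicate 2 to 0.71 without wt IMQ replicate 1 or 4. In *N2ΔMy* cells it was at 34, 36, 31 and 26 in Sham and at 30, 51, 105 and 41 in IMQ, a log2 fold change of 0.67 (SE 0.37, adjusted p = 0.29, limma), with 0.33 to 0.92 over the fits that leave out 1 library. *Iigp1* reached 50 in only 4 libraries, all of them Ly6Chi IMQ, so it entered the test through the group where it is highest. *Gbp8* was at 39, 40, 46 and 26 in wt Sham and at 10, 30, 33 and 13 in wt IMQ libraries, and at 52, 29, 20 and 21 against 13, 32, 3 and 22 in *N2ΔMy*. Its log2 fold changes were -0.92 (SE 0.43, adjusted p = 0.18) and -1.03 (SE 0.63, adjusted p = 0.34, limma), with overlapping libraries. The value in *N2ΔMy* ranged from -1.43 without IMQ replicate 2 to -0.41 without IMQ replicate 3.

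Counted by separation alone, 6 members in wt and 5 in *N2ΔMy* had every IMQ library under every Sham library, against 11.5% and 9.64% of all genes. Such separation by itself fixes a two-sided exact permutation test over the 70 splits of 4 against 4 libraries at p = 0.0286, the smallest possible. That p therefore adds no support beyond the separation. The response did not differ detectably between genotypes: in the interaction of genotype and treatment 0 of 9 members and 0 of 11230 genes were called (limma), with 177 genes and 0 members at an unadjusted p under 0.05 (1.58% of genes), and 0 members with the replicate block. The 95% interval of the interaction of *Igtp* ran from -0.54 to 0.40 and that of *Gbp7* from -0.08 to 1.03, which gives the precision of this comparison.

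Other genes of the pathway, from lists of named genes, moved as follows after IMQ. Of 22 genes best known as targets of type I interferon, 20 were called lower in wt and 20 in *N2ΔMy* (21 in each with the block), with medians of -1.51 and -1.46. The largest changes were in *Ifit3*, an inhibitor of viral translation, with -3.83 and -3.81, and in *Rsad2*, the antiviral viperin, with -3.43 and -3.51. The antiviral dynamin-like GTPases *Mx1* (-2.0 and -2.20) and *Mx2* (-2.03 and -2.30) were both called lower in both genotypes. Of 19 tested targets of interferon gamma outside the GTPases, 5 were called lower in each genotype, and 2 in wt and 1 in *N2ΔMy* were called higher. They were led by the chemokine *Cxcl10* (-3.61 and -3.62) and by *Cd74*, the invariant chain of MHC class II (-1.63 in wt and -1.78 in *N2ΔMy*), which are lower, and by *Upp1*, a uridine phosphorylase (4.63 and 4.97), which is higher.

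Of 8 STATs and IRFs examined, 2 were called lower in both genotypes and none higher. They were *Irf7*, which amplifies type I interferon responses (-1.85 and -1.93), and *Stat2* (-1.65 and -1.61). *Irf1*, which also acts on ISREs, was not called, at 1827 to 2067 in wt Sham and 1314 to 1864 in wt IMQ libraries (log2 fold change -0.35, adjusted p = 0.061, limma). *Ifng* was at 0 in all 24 libraries, and 0 of 9 interferon genes reached the minimum. None of the 7 receptor subunits and JAKs was called, and *Ifngr1* stayed between 8008 and 12138 over all groups and *Ifngr2* between 2197 and 3599. Of 7 feedback inhibitors, *Usp18* (-2.39 and -2.39) and *Socs1* (-1.64 and -2.35) were called lower and *Socs3* (1.53 and 1.61) higher. *Socs1* reached 50 in only 1 library, at 67, in *N2ΔMy* Ly6Chi Sham.

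Of the other GBPs, 2 of 6 could be tested, and *Gbp9* was called lower with -1.78 in wt and -1.79 in *N2ΔMy*, whereas *Gbp4* was not called (-1.15 and -1.09) except in wt with the block. Of the other IRGs and very large inducible GTPases 4 could be tested, and *9930111J21Rik2* was called lower in both genotypes (-0.93 and -0.92), with 3 called in wt and 2 in *N2ΔMy* under the block. Of 16 genes for LC3 conjugation and the targeting of GTPases to vacuoles, none was called in either genotype, and 1 was called higher in wt with the block. Of 9 inflammasome genes, 2 were called lower and 1 higher in wt, *Il18* (-0.74), *Nlrp3* (-0.72) and *Pycard* (0.67), and 0 lower and 1 higher in *N2ΔMy*, with 3 lower in wt under the block.

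Markers of other cells also moved with IMQ in Ly6Chi libraries. The sum of 8 neutrophil markers went from 876 to 1358 in wt Sham to 3106 to 8593 in wt IMQ libraries, and from 707 to 1388 to 3339 to 8458 in *N2ΔMy*, with 3 of 3 tested markers called higher in each genotype (median log2 fold changes of 8.46 and 8.55), while *Ly6g* was at 0 in every IMQ library. The sum of 6 dendritic cell markers went from 823 to 1483 to 270 to 531 in wt, and from 967 to 1687 to 296 to 410 in *N2ΔMy*, with 3 of 5 tested called lower in each. The sum of the 6 B cell markers went from 2052 to 3226 to 1279 to 2525 in wt and from 2149 to 3872 to 1222 to 2764 in *N2ΔMy*, with 0 of 2 tested called and *Ighm* called lower in both under the block. The sum of 7 macrophage markers was 1886 to 2000 in Sham and 2180 to 2969 in IMQ libraries of wt, with 0 of 6 tested called, and 2064 to 2421 and 3230 to 4167 in *N2ΔMy*, with 2 of 6 called higher. Of the subset markers, 2 of 7 for Ly6Clo and 1 of 5 for Ly6Chi were called higher in wt, and 1 of 7 and 1 of 5 in *N2ΔMy*. Of 3 tested platelet markers 0 were called in wt, or 1 higher with the block, and 1 was called higher in *N2ΔMy*. The cells had been sorted as lineage-negative, CD115+ and MHC-II-, and their purity after the sort was not tested here. The part of these cells in the fall of the GTPases was not tested, and in bulk libraries fewer cells of a type and less RNA per cell cannot be told apart.

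**Figure D3:**
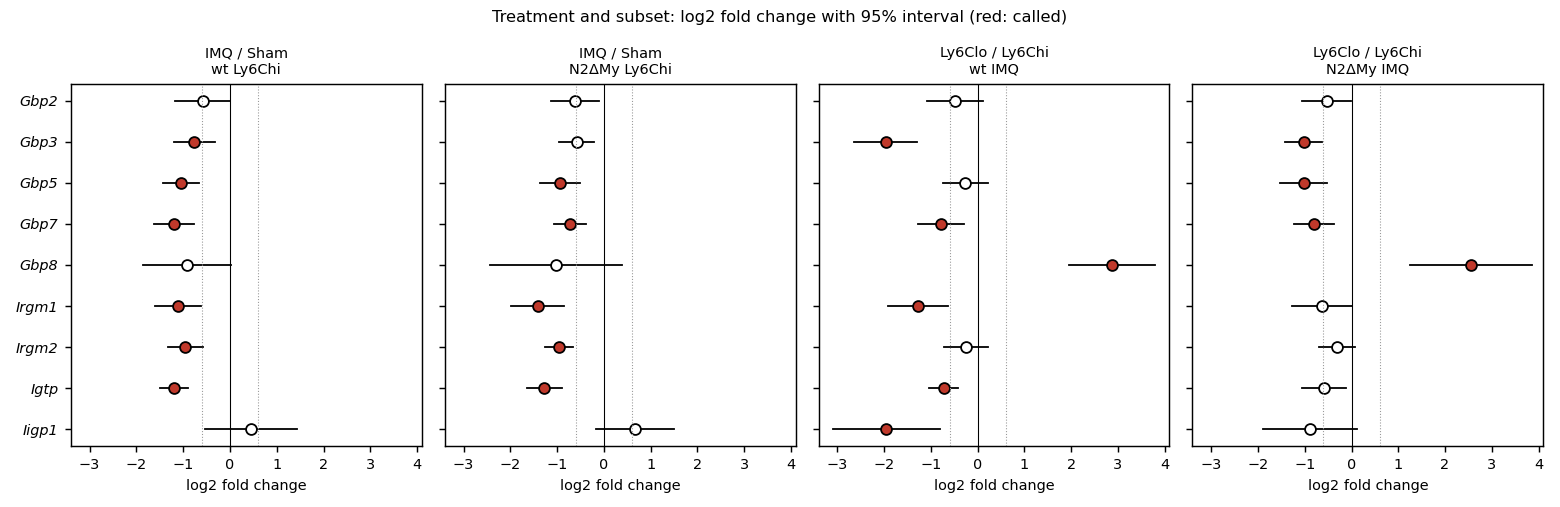
Log2 fold change of each GTPase (x axis, point) with its 95% interval (line) for IMQ against Sham in Ly6Chi cells and for Ly6Clo against Ly6Chi cells after IMQ, in wt and *N2ΔMy*. Red points were called, open points were not, and dotted lines mark 0.6 in either direction; *Gbp8* is the one member to the right in both subset panels, at 2.88 and 2.55.

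The second comparison set Ly6Clo against Ly6Chi monocytes of IMQ mice. In wt, 24.6% of all genes were called, 11.9% higher and 12.7% lower in Ly6Clo, and among the 9 members 1 was called higher and 5 lower. In *N2ΔMy*, 17.4% of genes were called, 9.01% higher and 8.38% lower, and 1 member was called higher and 3 lower. The member called higher was *Gbp8* in both genotypes, and *Iigp1* was among the 5 of wt; both passed the minimum through the subset where they are high, and without them 4 of 7 members were called lower in wt and 3 of 7 in *N2ΔMy*. *Gbp3* and *Gbp7* were lower and *Gbp8* higher in both genotypes.

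In wt, *Gbp3* had the largest difference among the well-expressed members. It was at 943, 1895, 1895 and 1492 in Ly6Chi and at 240, 432, 652 and 316 in Ly6Clo cells of wt mice, a log2 fold change of -1.97 (SE 0.30, adjusted p = 0.00049, limma). In *N2ΔMy* the same comparison, from 1381, 1722, 2581 and 1935 to 730, 959, 1037 and 955, gave -1.02 (SE 0.18, adjusted p = 0.0018, limma). No Ly6Clo library overlapped a Ly6Chi library in either genotype. *Gbp7* was at 218, 202, 307 and 327 in wt Ly6Clo and at 303, 412, 273 and 437 in *N2ΔMy* Ly6Clo cells. The log2 fold changes were -0.79 (SE 0.22, adjusted p = 0.017), lost without wt Ly6Chi replicate 2 or 3 or wt Ly6Clo replicate 2 (-0.94 to -0.67 over all such fits), and -0.80 (SE 0.20, adjusted p = 0.013, limma).

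*Gbp8*, of the chromosome 5 cluster, had the opposite pattern. It was at 10, 30, 33 and 13 in Ly6Chi and at 98, 121, 179 and 217 in Ly6Clo cells of wt mice, and at 13, 32, 3 and 22 against 62, 63, 93 and 132 in *N2ΔMy*. Every Ly6Clo library lay above every Ly6Chi library, and the log2 fold changes were 2.88 (SE 0.42, adjusted p = 0.00034) and 2.55 (SE 0.59, adjusted p = 0.0090, limma). In *N2ΔMy* the first library series gave 1.56, not called on its own, and the second 3.54. *Gbp8* reached 50 in 9 libraries, the 8 Ly6Clo libraries and 1 of *N2ΔMy* Ly6Chi Sham, so it entered the test almost wholly through the subset where it is high, and its call adds no support to a count of members. Its neighbour *Gbp9* was also called higher in Ly6Clo cells, with 1.64 in wt (adjusted p = 7.6e-05) and 1.08 in *N2ΔMy* (adjusted p = 0.00062, limma), from 262 to 475 in Ly6Chi IMQ to 987 to 1264 in Ly6Clo cells of wt mice. The 60 shared exon bases are 1.74% of the exon length of *Gbp8*.

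*Gbp5* and *Gbp2* were closer between the subsets. *Gbp5* was at 226, 351, 239 and 350 in wt Ly6Clo cells, within the Ly6Chi range from 259 to 440 but for 2 libraries, and its log2 fold change was -0.26 (SE 0.22, adjusted p = 0.39, limma). In *N2ΔMy* Ly6Clo cells it was at 176, 122, 180 and 193, under all 4 Ly6Chi libraries, with -1.02 (SE 0.23, adjusted p = 0.0069, limma). *Gbp2* was at 489, 523, 615 and 599 in wt and at 496, 740, 632 and 613 in *N2ΔMy* Ly6Clo cells, with log2 fold changes of -0.49 (SE 0.27, adjusted p = 0.19) and -0.53 (SE 0.24, adjusted p = 0.13, limma). Leaving out Ly6Chi replicate 1, the lowest Ly6Chi library of either genotype, made *Gbp2* called, with -0.78 in wt and -0.73 in *N2ΔMy*, where the series gave -0.09 and -0.98, the second called on its own.

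Of the IRGs, *Igtp* was lower in wt Ly6Clo cells, at 149, 143, 150 and 168, with a log2 fold change of -0.73 (SE 0.14, adjusted p = 0.0024, limma), and was not called in *N2ΔMy* (-0.58, SE 0.21, adjusted p = 0.070, limma), at 144, 237, 187 and 143. Without *N2ΔMy* Ly6Clo replicate 2 it was called there (-0.73), and the library series gave -0.25 and -0.92, the second called on its own. *Irgm1* was at 31, 53, 56 and 44 in wt Ly6Clo cells, under all Ly6Chi libraries, with -1.27 (SE 0.29, adjusted p = 0.0061, limma), and at 59, 72, 91 and 45 in *N2ΔMy*, with -0.62 (SE 0.29, adjusted p = 0.14, limma). *Irgm2* did not pass the test in either genotype, with -0.25 (SE 0.21, adjusted p = 0.39) and -0.31 (SE 0.17, adjusted p = 0.21, limma), at 295 to 582 in wt and 315 to 542 in *N2ΔMy* Ly6Clo cells. *Iigp1* was at 8, 19, 7 and 11 in wt Ly6Clo cells, under the Ly6Chi libraries from 25 to 92, with a log2 fold change of -1.95 (SE 0.52, adjusted p = 0.013, limma), a gene tested only because of its Ly6Chi IMQ libraries. It was not called in *N2ΔMy* (-0.89, SE 0.46, adjusted p = 0.19, limma), at 22, 33, 48 and 15. In all, 1 member was higher and 4 were lower without overlap in wt (18.3% and 17.1% of all genes), and 1 and 3 in *N2ΔMy* (14.8% and 13%). Without *Gbp8* and *Iigp1*, which passed the minimum through the subset where they are high, 0 were higher and 3 lower in each genotype.

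The other lists gave the following counts between the subsets. Of 22 type I interferon genes, 13 were called lower and 1 higher in wt Ly6Clo cells, and 8 lower and 0 higher in *N2ΔMy*, and the block called 15 lower in wt and 16 in *N2ΔMy*. The largest were *Oas2*, a synthase of the RNase L activator 2-5A (-2.15), and *Oasl2* (-2.15) in wt, and *Oasl2* (-1.92) and *Isg15*, a ubiquitin-like modifier (-1.75), in *N2ΔMy*. *Mx1* (-1.37 and -0.89) and *Mx2* (-2.43 and -1.57) were lower in both. Of the 19 interferon gamma targets, 3 were called higher in each genotype and 2 lower in wt, beside 24.6% and 17.4% of all genes, with list medians of -0.02 and 0.16. The block called 4 higher and 4 lower in wt and 4 higher in *N2ΔMy*. The higher ones were led by *Cd274*, which encodes PD-L1 (3.37 and 3.46), and *H2-K1*, an MHC class I heavy chain (0.99 in wt and 0.74 in *N2ΔMy*). *Irf1* was not called (-0.10 and -0.10), nor was *Ifngr1* (-0.10 and 0.01) or *Ifngr2* (0.06 and 0.03). Of the STATs and IRFs, 1 was called higher and 3 lower in wt (4 with the block), and 3 lower in *N2ΔMy*. Among 7 feedback inhibitors, 2 were called higher and 1 lower in wt, and 1 higher and 1 lower in *N2ΔMy*. Among inflammasome genes 2 were higher and 4 lower in each genotype, with *Il1b* at 3.77 and 3.02 and *Ninj1*, which ruptures the membrane in lytic death, at -2.06 and -2.0. The kinase *Tyk2* was lower (-1.06 and -0.86) and *Jak2* higher (0.70 and 0.66), and in the LC3 list *Lgals3* was lower (-0.87 and -0.86) and *Sqstm1* higher in wt (0.62).

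Markers of other cells differed between the subsets too. The sum of the 8 neutrophil markers was 3106 to 8593 in Ly6Chi and 36 to 257 in Ly6Clo IMQ libraries of wt, and 3339 to 8458 and 172 to 300 in *N2ΔMy*, with 3 of 3 tested markers called lower in Ly6Clo cells of both genotypes. The sum of the 7 macrophage markers was 2180 to 2969 in Ly6Chi and 3968 to 6163 in Ly6Clo cells of wt, with 2 of 6 tested called higher (3 with the block), and 3230 to 4167 and 7782 to 11872 in *N2ΔMy*, with 6 of 6. Of 5 tested dendritic cell markers 1 was called higher and 1 lower in wt, where the sum of 6 went from 270 to 531 to 86 to 568, and 3 higher in *N2ΔMy*, where it went from 296 to 410 to 212 to 1690. The block called 2 and 4 of them higher. Their part in the subset differences of the GTPases was not tested.

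The third comparison asked how the *N2ΔMy* genotype, in which *Notch2* was lowered, bears on the GTPases. In Ly6Chi cells of Sham mice 0 of 9 members were called, as were 0.0178% of all genes, and in Ly6Chi cells of IMQ mice 0 of 9, as were 0.0267% (limma). At an unadjusted p under 0.05 there were 1 and 0 members, against 5.21% and 6.05% of genes. The 1 member was *Gbp2* in Sham cells, at 1305, 1352, 1268 and 1531 in *N2ΔMy* against 1067, 1142, 1111 and 1342 in wt (log2 fold change 0.23, SE 0.09, adjusted p = 0.93, limma). No member separated the genotypes without overlap, whereas 1.42% of all genes were higher and 1.73% lower in that way in Sham cells, and 2.13% higher and 1.71% lower in IMQ cells. In IMQ cells the estimates ran from -0.48 in *Gbp8* to 0.45 in *Gbp7*, whose 95% interval was -0.03 to 0.93.

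In Ly6Clo cells of IMQ mice 4.78% of all genes were called, 3.12% higher and 1.67% lower in *N2ΔMy*, and of the 9 members *Gbp3* was called higher. It was at 240, 432, 652 and 316 in wt and at 730, 959, 1037 and 955 in *N2ΔMy*, or 410 ± 179.6 against 920.2 ± 132 (SD, n = 4). All *N2ΔMy* libraries lay above all wt libraries, with a fitted fold of 2.38 (log2 fold change 1.25, SE 0.26, 95% interval 0.67 to 1.84, adjusted p = 0.018, limma). That separation by itself fixes the exact permutation test at its smallest p of 0.0286. The difference was 1.37 in the first library series and 1.13 in the second, and the adjusted p with the replicate block was 0.00022 (limma). The call is lost without wt replicate 4, *N2ΔMy* replicate 2 or *N2ΔMy* replicate 3, with values from 1.03 to 1.51 over all 8 fits that leave out 1 library.

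*Gbp5* and *Gbp8* differed in the other direction without being called. *Gbp5* was at 226, 351, 239 and 350 in wt and at 176, 122, 180 and 193 in *N2ΔMy*, without overlap, with a log2 fold change of -0.78 (SE 0.21, adjusted p = 0.055, limma), and it was called with the replicate block (adjusted p = 0.019, limma). *Gbp8* was at 98, 121, 179 and 217 in wt and at 62, 63, 93 and 132 in *N2ΔMy*, where 1 *N2ΔMy* library lay above 2 wt libraries, and its log2 fold change of -0.81 (SE 0.32, adjusted p = 0.19, limma) was also called with the block (adjusted p = 0.013, limma). The block thus raised the members called from 1 to 3, 1 higher and 2 lower, while it raised the calls over all 11230 genes from 537 to 939. Within the series *Gbp8* gave -0.79 and -0.83 and *Gbp5* gave -0.94 and -0.63. Without overlap, 1 member was higher and 1 lower, against 6.62% and 6.17% of all genes.

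The other members were not called between the genotypes in Ly6Clo cells, with or without the block. *Iigp1* was at 8, 19, 7 and 11 in wt and at 22, 33, 48 and 15 in *N2ΔMy*, with 1.29 (SE 0.48, adjusted p = 0.17, limma), at values too low for the minimum of the test in this subset. *Irgm1* (0.52, SE 0.30) and *Gbp7* (0.44, SE 0.21) were higher in mean, with adjusted p = 0.40 and 0.29 (limma). *Igtp* (0.19, SE 0.19), *Gbp2* (0.15, SE 0.14) and *Irgm2* (-0.04, SE 0.22) were closest to 0, with 95% intervals from -0.24 to 0.62, from -0.16 to 0.46 and from -0.54 to 0.46.

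**Figure D4:**
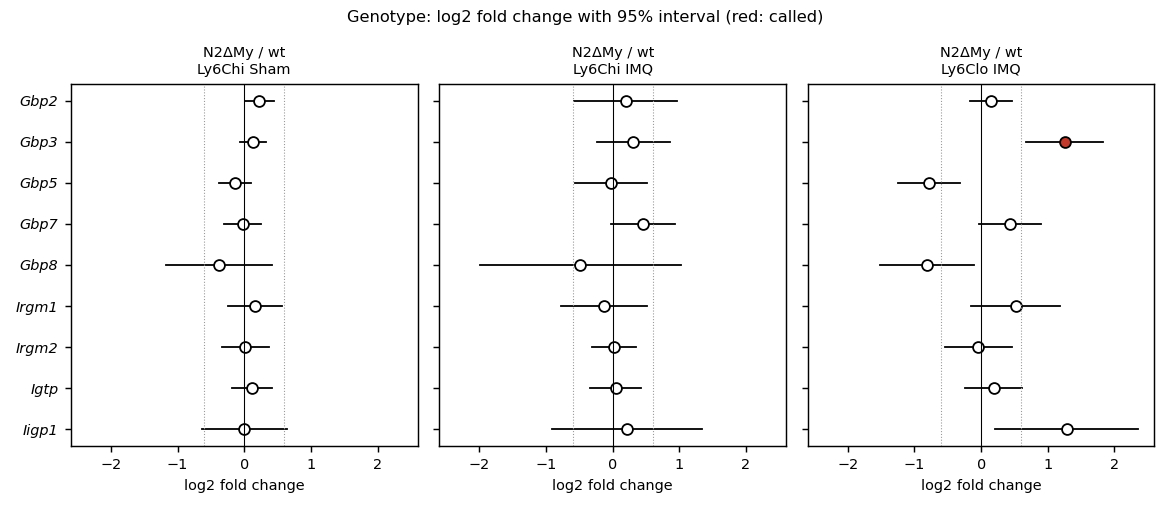
Log2 fold change of each GTPase in *N2ΔMy* against wt (x axis, point) with its 95% interval (line), in Ly6Chi Sham, Ly6Chi IMQ and Ly6Clo IMQ cells. The 1 red point is *Gbp3* in Ly6Clo IMQ cells, at 1.25, and dotted lines mark 0.6 in either direction.

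Whether the genotype difference of Ly6Clo cells was distinct from that of Ly6Chi cells was tested as an interaction after IMQ. There 0 of 9 members were called, against 1.03% of genes (limma), with *Gbp3* at 0.94 (SE 0.39, unadjusted p = 0.027, adjusted p = 0.47, limma) and *Gbp5* at -0.76 (SE 0.33, unadjusted p = 0.037, adjusted p = 0.54, limma) among the 8.33% of genes with an unadjusted p under 0.05. With the replicate block *Gbp3* was called (adjusted p = 0.0085, limma), and the calls over all 11230 genes rose from 116 to 271. The interaction was 1.17 and 0.72 in the 2 series for *Gbp3* and -0.65 and -0.87 for *Gbp5*.

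Markers of the subsets moved with the genotype in the same Ly6Clo libraries. The sum of the 5 Ly6Chi markers was 2911 to 5767 in wt and 34500 to 66174 in *N2ΔMy*, that of the 7 Ly6Clo markers 157209 to 180173 and 88222 to 105222, and that of the 7 macrophage markers 3968 to 6163 and 7782 to 11872. *Gbp3* was lower (-1.97) and *Gbp8* higher (2.88) in Ly6Clo than in Ly6Chi cells of wt. The part of the makeup of the sorted cells in the genotype differences was not tested. *Gbp5*, lower in *N2ΔMy*, was not called between the wt subsets (-0.26). Of the subset and macrophage markers, 3 of 5 Ly6Chi markers and 5 of 6 tested macrophage markers were called higher and 5 of 7 Ly6Clo markers lower in *N2ΔMy*, with 5 of 5 Ly6Chi and 6 of 7 Ly6Clo markers under the block. Of 3 tested neutrophil markers 1 was called higher, *Mmp8* (1.42), with sums of 36 to 257 in wt and 172 to 300 in *N2ΔMy*. The dendritic cell markers summed to 86 to 568 and 212 to 1690, with a median log2 fold change of 1.25 and 0 of 5 called, or 2 higher with the block.

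Among the pathway lists between genotypes in Ly6Clo cells, calls were as follows. Of 22 type I interferon genes 1 was called lower, the nucleic acid sensor *Zbp1* (-0.87), and the list's median was 0.01, with 1 also called higher under the block. *Gbp9* was called lower, at 1029, 1264, 987 and 1142 in wt and at 535, 664, 550 and 745 in *N2ΔMy* (log2 fold change -0.83, adjusted p = 0.0043, limma). Of 19 interferon gamma targets 2 were called higher, *Cd74* (2.41) and the Fc receptor gene *Fcgr1* (1.16), and 1 lower, *Cd274* (-0.94), where 4.78% of all genes were called, and the block called 3 higher. *Socs3* was lower (-0.80). None of the receptors, JAKs, STATs or IRFs examined was called, with *Irf1* at -0.08, *Ifngr1* at 0.15 and *Ifngr2* at 0.12.

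**Figure D5:**
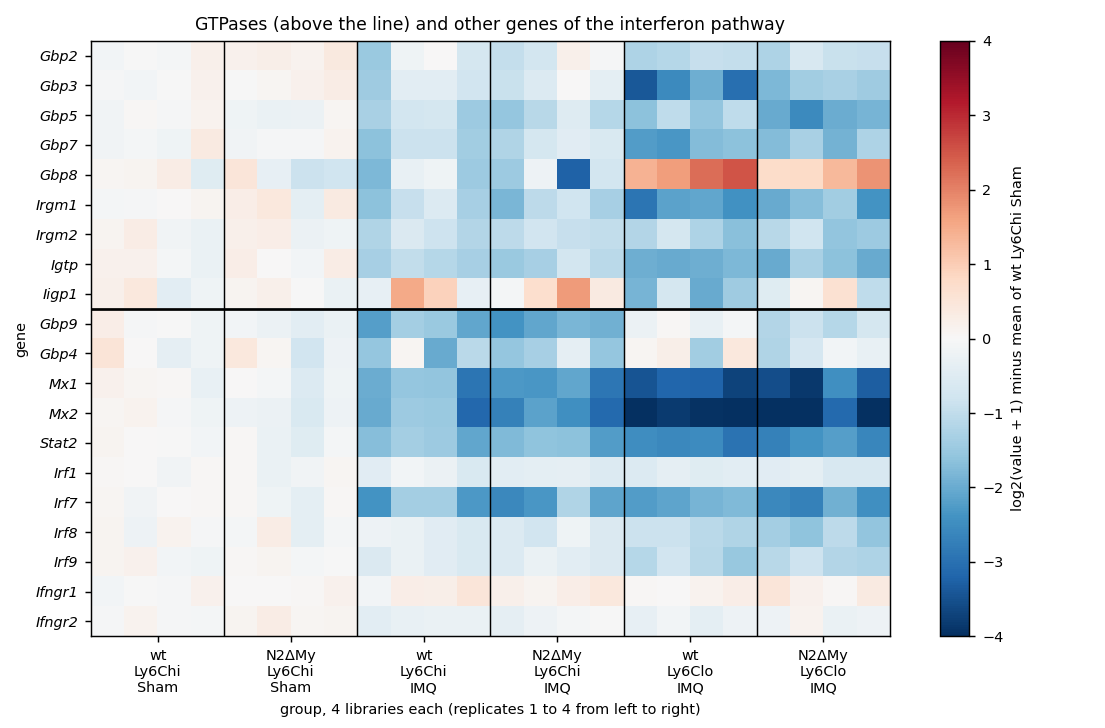
Log2(value + 1) of each gene (rows) in the 24 libraries (columns, grouped, replicates 1 to 4 from left to right), as the difference from the mean of the wt Ly6Chi Sham libraries; the colour scale ends at 4 in either direction. *Gbp8* is red in the 8 Ly6Clo libraries. Within each Ly6Chi IMQ group, replicate 1 holds the lowest or joint lowest value of most GTPases.

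Libraries of one group also differed across several GTPases. Replicate 1 held the lowest value of 8 of the 9 members in wt Ly6Chi IMQ cells, tied with replicate 4 for *Igtp* and *Iigp1*, and of 8 of the 9 in *N2ΔMy* Ly6Chi IMQ cells, and replicate 3 of the latter held the highest of 7. Leaving out *Gbp8*, Pearson's r between 2 members over the 24 libraries, which share groups and library series, was 0.30 to 0.95 over 28 pairs with a median of 0.82, and the median was 0.49 for deviations from the group means, with a range from -0.0033 to 0.78. The pairs nearest 0 were those of *Irgm2* with *Gbp7* (-0.0033) and *Gbp5* (0.0088). Without *Iigp1* as well, r over the 24 libraries was 0.67 to 0.95 over 21 pairs with a median of 0.85, and the median for the deviations was 0.44. The 8 pairs with *Gbp8* ranged from -0.64 to -0.25, with a median of 0.07 for those deviations. The genes outside the members whose log2 values over the 24 libraries were most like the mean of the members were *Rtp4* (r = 0.975), *RP24-499A8.3* (0.970), *Oasl2* (0.970), *Usp18* (0.965) and *Trim30a* (0.964). *Rtp4* was at 951 to 1239 in wt Ly6Chi Sham, 86 to 328 in wt Ly6Chi IMQ and 45 to 98 in wt Ly6Clo cells.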

How the data were processed

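Libraries of sorted mouse monocytes were put into groups by genotype, subset and treatment, and numbered, as their labels give it. The deposited values are scores: the authors trimmed the reads with Trim Galore 0.4.4, aligned them with STAR 2.5.3a to GRCm38.p6, counted them on GENCODE genes, normalized the counts with DESeq2 and rounded them to whole numbers. The library kit was stranded, and the strand setting of the counting is not given in the sources used here. Values are therefore not raw counts, and fold changes are on the log2(value + 1) scale, which understates changes of low genes. Columns with the authors' own fold changes and p-values were not used. The methods describe a Sham cream for the skin model and untreated controls for the sorted cells, and the labels say Sham.

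Comparisons used limma 3.58.1 in R 4.3.3 (lmFit, eBayes with trend) on the 8 libraries compared, 16 for interactions and 24 for the F-test, on genes that reached 50 in 1 or more libraries; p-values measure the spread between libraries described as biological replicates. Libraries with the same replicate number correlated in their deviations from the group means in all 28 pairs (r 0.16 to 0.619, -0.116 to 0.263 once series were removed). In some pairs a library of another number correlated more, as for replicate 3 in IMQ against Sham of *N2ΔMy* Ly6Chi cells (0.443 against 0.160). The block by number was fitted as an alternative, and whether the numbers pair libraries was not established. Depth was estimated from the gaps between the whole numbers that the rounded values take. Scripts were tested on simulated data. Members and lists were chosen with earlier results of these data known. All 10 members are named in every comparison, and of the other lists at most 2 called genes per direction, besides *Notch2*, *Ifng*, *Ifngr1*, *Ifngr2* and *Irf1*. A gene that the naming rule also lists is not reported here and was left out of its list. Levels per kb used exon lengths of the deposited table. Figures used matplotlib 3.10.9.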

Additional observations from a re-analysis of the deposited data

How the results depend on the processing

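The members' fold changes and the counts of members and of all genes called were recomputed with other pseudocounts, filters, normalization, variance settings, library sets, the replicate block and single libraries left out. The lists of other genes were recomputed with the block only, and correlations, likeness, promoter matches and permutation tests under no alternative. Of 1683 log2 fold changes of members under an alternative, 1533 kept direction and side of the threshold, 37 lost and 18 gained a call and 95 changed sign, 3 of them among the 855 of the 5 comparisons with calls. The causes were not tested.

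Members called after IMQ in *N2ΔMy* were 3 with no filter and 2 in the second library series alone. Between subsets they were 2 in wt in the second series, and in *N2ΔMy* 1 with no filter and 2 in the first series. Between genotypes in Ly6Clo cells they were 0 with no filter, without the variance trend or in the second series, 2 with quantile normalization or with all 24 libraries fitted, and 3 with the replicate block or series as a covariate. They ranged from 0 to 1 with single libraries left out. The interaction of genotype and subset gave 1 with the block. The block changed no other member count by over 1.5 times. Calls lost (limma, adjusted p in brackets) were, with no filter, *Gbp3* (0.17) and *Irgm1* (0.052) after IMQ in wt, *Gbp5* and *Gbp7* (both 0.083) after IMQ in *N2ΔMy*, *Gbp7* (0.11) and *Iigp1* (0.067) between wt subsets, *Gbp5* (0.061), *Gbp7* (0.096) and *Gbp8* (0.086) between *N2ΔMy* subsets and *Gbp3* (0.18) between genotypes. Without the trend *Gbp3* was lost after IMQ in wt (0.062) and between genotypes (0.058). In the first series alone *Gbp3* was lost after IMQ in wt (0.11), *Irgm1* (0.051) and *Iigp1* (0.083) between wt subsets and *Gbp7* (0.11) and *Gbp8* (0.054) between *N2ΔMy* subsets. In the second, *Irgm1* was lost after IMQ in wt (0.097), *Gbp5* (0.080), *Gbp7* (-0.58 on the log2 scale) and *Irgm1* (0.087) after IMQ in *N2ΔMy*, *Gbp7* (0.12), *Irgm1* (0.056), *Igtp* (0.094) and *Iigp1* (0.071) between wt subsets and *Gbp3* (0.11) between genotypes. The use of the replicate number as a block is described in the methods.

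The following values changed sign. In Ly6Chi IMQ cells between genotypes, quantile normalization gave *Irgm2* -0.0075, the first series gave *Gbp2* -0.032, *Gbp8* 0.22, *Irgm2* -0.015, *Igtp* -0.24 and *Iigp1* -0.29, and the second gave *Gbp5* 0.24. In Ly6Chi Sham cells the first series gave *Gbp7* 0.0082, *Igtp* -0.041 and *Iigp1* -0.15 and the second *Irgm1* -0.069. In the interaction with treatment, quantile normalization gave *Irgm2* -0.013, the first series *Gbp5* -0.13, *Gbp8* 0.24, *Irgm2* -0.040 and *Iigp1* -0.14, and the second *Gbp2* 0.23 and *Igtp* 0.054. In the interaction with subset the first series gave *Gbp2* 0.29 and *Gbp7* 0.44 and the second *Gbp8* 0.36 and *Igtp* -0.29.

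With single libraries left out, *Irgm2* ranged from -0.20 to 0.12 between genotypes in Ly6Clo cells. In Ly6Chi IMQ cells *Gbp2* ranged from -0.10 to 0.39, *Gbp5* from -0.21 to 0.13, *Gbp8* from -0.88 to 0.13, *Irgm1* from -0.31 to 0.056, *Irgm2* from -0.068 to 0.14, *Igtp* from -0.090 to 0.15 and *Iigp1* from -0.12 to 0.58. In Ly6Chi Sham cells *Gbp7* ranged from -0.078 to 0.10, *Irgm2* from -0.076 to 0.12 and *Iigp1* from -0.14 to 0.14. In the interaction with treatment *Gbp2* ranged from -0.33 to 0.17, *Gbp3* from -0.046 to 0.32, *Gbp5* from -0.074 to 0.27, *Gbp8* from -0.51 to 0.51, *Irgm2* from -0.10 to 0.13, *Igtp* from -0.21 to 0.037 and *Iigp1* from -0.13 to 0.57. In the interaction with subset *Gbp2* ranged from -0.25 to 0.25, *Gbp7* from -0.17 to 0.14, *Gbp8* from -0.94 to 0.075, *Irgm2* from -0.22 to 0.10 and *Igtp* from -0.0033 to 0.28.

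Over all genes, calls between genotypes in Ly6Clo cells went from 537 to 215 with no filter, 939 with the block, 830 with series as a covariate and 180 in the second series. In Ly6Chi IMQ cells they went from 3 to 54 with the block, and in the interaction with subset from 116 to 271 with the block and 18 in the second series. After IMQ in wt they went from 1066 to 592 in the second series. Values under 50, as in *Gbp8* and *Iigp1*, rest on few reads, and 0 of 24 libraries of *Tgtp2* reached that level.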

Other observations

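Among relatives of the members, *9930111J21Rik1*, a gene of the IRG family, differed mainly between the library series. It was at 1296, 980, 431 and 339 in wt Ly6Chi Sham and at 672, 784, 170 and 151 in wt Ly6Chi IMQ libraries, and the 2 libraries of the first series lay above the 2 of the second in each of the 6 groups. Within the series IMQ gave log2 fold changes of -0.63 and -1.25 in wt and of -0.67 and -0.38 in *N2ΔMy*, neither pooled value called. *9930111J21Rik2* had no such step, at 3882, 3734, 4406 and 3821 in wt Ly6Chi Sham and at 2012, 2377, 2217 and 1767 in wt Ly6Chi IMQ libraries. *Gvin1*, a very large inducible GTPase, was higher in the second series in Ly6Chi Sham cells, at 172, 155, 266 and 264 in wt and at 145, 162, 228 and 263 in *N2ΔMy*.

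*Mx1* went from 3499, 3225, 3154 and 2523 in wt Ly6Chi Sham to 775, 1063, 1025 and 408 in wt Ly6Chi IMQ and to 283, 344, 332 and 234 in wt Ly6Clo libraries, the same order of these wt groups as for *Gbp3*. *Gbp9* had another order, with wt Ly6Clo libraries at 1029, 1264, 987 and 1142, close to the Sham Ly6Chi libraries at 1452, 1172, 1192 and 1076, and wt Ly6Chi IMQ libraries at 262, 475, 437 and 286. No Ly6Clo cells of Sham mice were in the data, so *Gbp8* and *Gbp9* could not be compared between IMQ and Sham in that subset.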
